A study of Mus musculus with 2 samples.

Results

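The Notch receptors and ligands are the surface proteins through which neighbouring cells signal to each other along the Notch pathway. They were taken as the 10 genes *Notch1*, *Notch2*, *Notch3*, *Notch4*, *Jag1*, *Jag2*, *Dll1*, *Dll3*, *Dll4* and *Dlk1*, found by symbol among the 22156 genes of an RNA sequencing table, and all 10 had a row. The libraries came from primary chondrocytes of newborn mice, grown as a monolayer without further treatment. The study's methods describe such cells as taken from rib and articular cartilage. There was 1 library from the control genotype and 1 from *Myl3*-KO. *Myl3*-KO mice are *Col2a1-Cre; Myl3* flox/flox, so that Cre recombinase driven by the *Col2a1* promoter deletes *Myl3* in cells that have used that promoter. The controls are described as littermates with the same floxed alleles in the study's methods and as WT in the sample labels. How many animals contributed to each library, and at which passage, is not given in the sources used here. The comparison shows which transcripts differ between 1 control and 1 *Myl3*-KO library, and it cannot assign a difference to the deletion of *Myl3*.

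A Notch receptor spans the membrane once and is activated by a Jagged or Delta-like ligand on an adjacent cell. The pull of the bound ligand, which is being endocytosed, exposes the receptor to cleavage by ADAM10 and then by γ-secretase, and the released intracellular domain enters the nucleus, where it joins RBPJ and a Mastermind protein to turn on genes such as *Hes1* and *Hey1*. In the skeleton the pathway is known for holding back the maturation of chondrocyte progenitors. The DLK1 protein has the repeats of this family but lacks the DSL domain with which the Jagged ligands, DLL1 and DLL4 bind the receptor. It is generally described as an inhibitor. Activation proceeds by cleavage of the receptor protein, which RNA levels do not measure.

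The library totals were 17612434.91 expected counts in control and 13477976.98 in *Myl3*-KO. *Myl3* had 0 counts in both libraries, so the labels could not be checked by the deleted gene. The chondrocyte markers were mostly absent or had few reads. Of 15 such markers, 5 were at 0 in both libraries, among them the cartilage matrix genes *Acan* and *Matn1*. *Col9a1* (0 and 1 counts), *Col9a2* (0 and 2) and *Comp* (1 and 2) were nearly absent. In all, 8 of the 15 had too few reads to be tested. *Prg4* had 7 and 7 counts, *Sox6* 14 and 7 and *Col2a1* 30 and 27, while the fibrillar collagen gene *Col1a2* had 211652 and 189213. Other markers were present. These were the chondrogenic transcription factor genes *Sox9* with 866 and 480 counts and *Sox5* with 893 and 684. The collagen genes *Col11a1* with 121 and 99 and *Col11a2* with 293 and 395 were present too. With 1 library per genotype no difference here has a replicate check. Every test and interval below therefore sets the reads of 1 library against those of the other and says nothing about the genotypes as such, and it covers counting error only.

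Reads of these genes were spread very unevenly over the family. In the control, 5 of the 10 members had from 0 to 2 counts, and the same 5 had from 0 to 2 in *Myl3*-KO, which is under the floor of 3 counts taken as the limit of detection (0.170 CPM, counts per 1000000 counts of the library, in control and 0.223 in *Myl3*-KO). These were *Notch3*, *Dll1*, *Dll3*, *Dll4* and *Dlk1*. The other 5 members, *Notch1*, *Notch2*, *Notch4*, *Jag1* and *Jag2*, reached the 10 counts over both libraries that were required for a test. For all 10 members the deposited counts were whole numbers, and 0 of the genes that overlap them in the GENCODE M21 annotation of GRCm38 has a row in the table. Reads from such overlapping transcripts, which for *Notch1* include *0610009E02Rik* and *Gm13568* on the other strand, could have been assigned to the member, because the strand used in counting is not given in the sources used here.

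**Figure D1:**
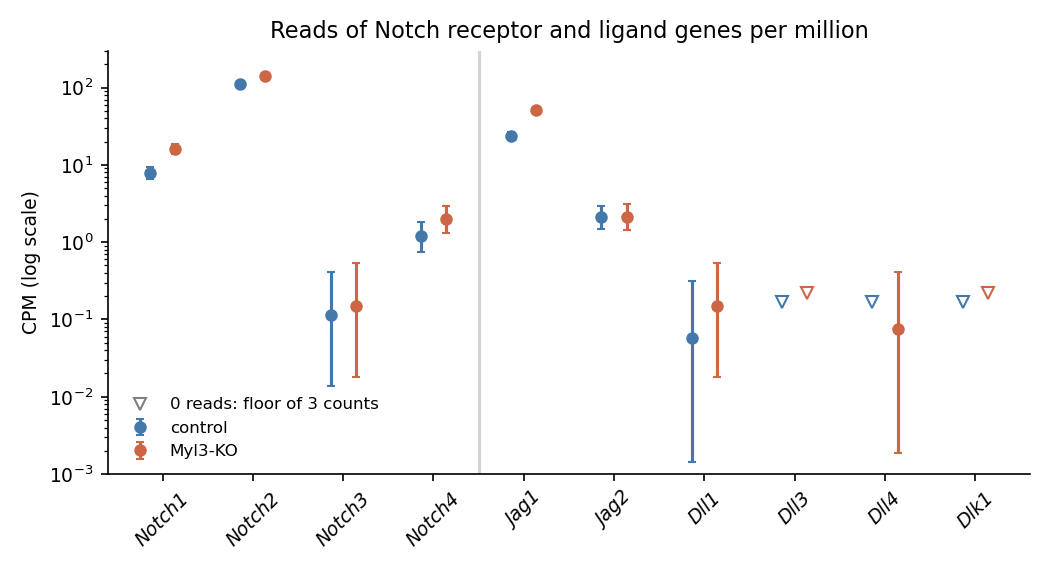
Level of each Notch receptor gene (left of the grey line) and ligand gene (right) in control and *Myl3*-KO libraries, in CPM on a log axis, with 95% exact Poisson intervals. *Notch2* stands at 111 and 140 CPM and *Jag1* at 23.9 and 51.0, while *Dll3* and *Dlk1* had no reads in either library, drawn as open triangles at the floor of 3 counts.

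Promoter windows are shown for *Jag1*, *Notch1* and *Notch2*, the members whose reads differed between the libraries beyond counting error. The sequences are from RefSeq on GRCm38.p6, whose table held a window for all 10 members. Each is the part of the 250 bases before the RefSeq start site that lies outside every exon of GENCODE M21, and it runs 5′ to 3′ on the strand of the gene. The window of *Jag1* is chr2:137116645-137116770 on the minus strand, that of *Notch1* chr2:26503825-26504072 on the minus strand, and that of *Notch2* chr3:98013288-98013526 on the plus strand. The RefSeq start site used for *Notch1* lies inside the span of the gene in GENCODE M21, so its window is not at the outer end of that span. Capitals mark GC boxes, the letters GGGCGG bound by SP and KLF factors, and N boxes, the letters CACNAG bound by HES factors, on either strand.
Jag1: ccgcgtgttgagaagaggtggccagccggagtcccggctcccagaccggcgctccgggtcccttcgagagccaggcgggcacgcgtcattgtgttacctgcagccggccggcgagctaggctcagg
Notch1: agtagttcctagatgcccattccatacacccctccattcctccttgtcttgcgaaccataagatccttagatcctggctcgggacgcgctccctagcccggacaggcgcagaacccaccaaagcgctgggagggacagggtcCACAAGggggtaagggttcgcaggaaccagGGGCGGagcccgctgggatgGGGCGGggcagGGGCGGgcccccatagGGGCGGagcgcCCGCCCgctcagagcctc
Notch2: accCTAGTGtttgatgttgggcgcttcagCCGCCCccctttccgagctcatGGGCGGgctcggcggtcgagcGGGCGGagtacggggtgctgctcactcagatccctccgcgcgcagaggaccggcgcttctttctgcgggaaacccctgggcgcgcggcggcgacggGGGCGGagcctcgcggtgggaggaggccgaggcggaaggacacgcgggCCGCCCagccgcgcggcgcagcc

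The windows of *Notch1* and *Notch2* are alike in holding 5 GC boxes and 1 N box each, and the printed window of *Jag1* holds neither. Over the full 250 bases, a GC box was found in 6 of the 11 windows of the members (*Dll1* has a pair of windows), against 32.7% of the 32851 windows of all genes. An N box was found in 4 of the 11, against 36.7%. The letters TGGGAA, the core bound by RBPJ, were found in 0 of the 11 windows and in 21.6% of all windows, and TATAAA in 0 of the 11 and in 12.4%. The share of G and C in the windows of the members ran from 52.0% (*Dll3*) to 87.2% (*Jag2*), against a median of 52.4% over all windows. The part of this base composition in the motif shares was not tested. The motifs were chosen after the values were seen, both strands were searched, and a match or its absence describes only the letters of these windows. The members with and without reads were not separated by the GC box, since *Notch3*, with 2 counts in each library, held 4 of them and *Notch4* and *Jag1* held 0.

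Among the receptors, *Notch2* was the main transcript. *Notch2* (ENSMUSG00000027878, chromosome 3 from 98013527 to 98150361, protein coding) had 1963 counts in control and 1893 in *Myl3*-KO, which is 10.61 and 13.38 FPKM (fragments scaled by transcript length and library size, so that levels can be set beside other genes). That was 91.2% of the summed FPKM of the 4 receptor genes in control and 86.9% in *Myl3*-KO. Relative to the library totals *Myl3*-KO was 1.26-fold higher, a log2 ratio of 0.33 (95% Clopper-Pearson interval 0.24 to 0.43). The counts thus differed beyond counting error (two-sided exact binomial test, p = 1.80e-11 after Benjamini-Hochberg adjustment over the 12431 genes tested), by less than the 2-fold taken as the limit of size.

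*Notch1* (ENSMUSG00000026923, chromosome 2 from 26457903 to 26516663), the receptor best known from T cells and vessels, was a minor transcript beside *Notch2*. It had 139 counts in control and 217 in *Myl3*-KO, or 0.83 and 1.7 FPKM, and its share of the summed receptor FPKM was 7.14% and 11.0%. The *Myl3*-KO library was 2.04-fold higher, which is 1.03 on the log2 scale (95% interval from 0.71 to 1.35, exact binomial adjusted p = 5.50e-10). The estimate lies just past the limit of 1 on the log2 scale, and its interval reaches below it.

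The difference between the libraries was larger for *Notch1* than for *Notch2*. The log2 ratio of *Notch1* exceeded that of *Notch2* by 0.69 (exact conditional 95% interval 0.37 to 1.03), a comparison of their 4 counts that does not depend on the library totals. *Notch1* was therefore 1.62-fold higher relative to *Notch2* in *Myl3*-KO. *Notch2* nevertheless remained the receptor with the highest FPKM in both libraries.

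The last 2 receptors were rare. *Notch4* (ENSMUSG00000015468, chromosome 17 from 34564268 to 34588503), known mainly from endothelium, had 21 counts in control and 27 in *Myl3*-KO, with 0.18 and 0.3 FPKM. Its log2 ratio was 0.75 with an interval of -0.13 to 1.64 (exact binomial adjusted p = 0.170), so that neither no difference nor one of more than 2-fold lies outside it. At this depth *Notch4* could not be told apart from *Notch1* (difference of log2 ratios 0.28 for *Notch1* minus *Notch4*, interval -0.68 to 1.22) nor from *Notch2* (0.41 for *Notch4* minus *Notch2*, interval -0.47 to 1.32). *Notch3* (ENSMUSG00000038146, chromosome 17 from 32120820 to 32166852), the receptor of vascular mural cells, had 2 counts in each library and was not tested. By FPKM the order of the receptors was *Notch2*, *Notch1*, *Notch4* and *Notch3* in both libraries.

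**Figure D2:**
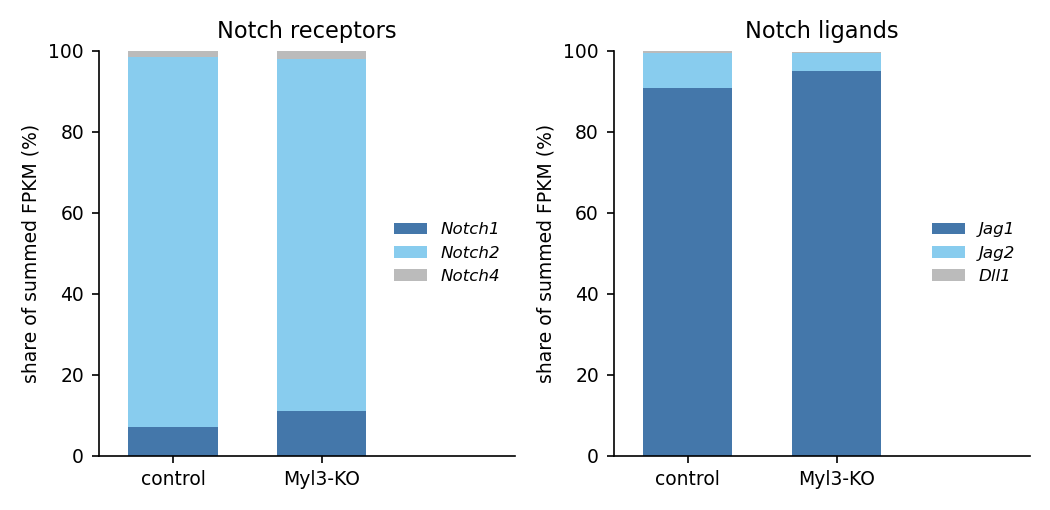
Share of the summed FPKM held by each receptor gene (left) and each ligand gene (right) in control and *Myl3*-KO libraries, in percent. Members under 0.3% in both libraries are left out, *Notch2* holds 91.2% and 86.9% of the receptors, and *Jag1* holds 4.26 of 4.69 FPKM of the ligands in control and 9.08 of 9.56 in *Myl3*-KO.

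On the ligand side *Jag1* took the place that *Notch2* held among the receptors. *Jag1* (ENSMUSG00000027276, chromosome 2 from 137081456 to 137116644) encodes a Jagged ligand that is widespread in mesenchymal cells. It had 421 counts in control and 687 in *Myl3*-KO, or 4.26 and 9.08 FPKM. The *Myl3*-KO library was 2.13-fold higher, a log2 ratio of 1.09 with a 95% interval of 0.92 to 1.27 (exact binomial adjusted p = 1.47e-33). The raw counts of *Jag1* were higher in *Myl3*-KO although that library was the smaller one.

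*Jag2* (ENSMUSG00000002799, chromosome 12 from 112907819 to 112929776), the paralogue of *Jag1*, had 37 counts in control and 29 in *Myl3*-KO. Its FPKM of 0.41 and 0.42 were nearly equal, and its log2 ratio was 0.03 with an interval of -0.72 to 0.78 (exact binomial adjusted p = 1). The interval leaves out a 2-fold difference in either direction. The Jagged genes moved unequally, since the log2 ratio of *Jag1* exceeded that of *Jag2* by 1.06 (exact conditional interval 0.29 to 1.83).

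None of the Delta-like genes was detectable above the floor. *Dll1* (ENSMUSG00000014773, chromosome 17 from 15367354 to 15376872) had 1 count in control and 2 in *Myl3*-KO. *Dll4* (ENSMUSG00000027314, chromosome 2 from 119325784 to 119335962), the ligand of endothelial tip cells, had 0 and 1. *Dll3* (ENSMUSG00000003436, chromosome 7 from 28293553 to 28302238) and *Dlk1* (ENSMUSG00000040856, chromosome 12 from 109452823 to 109463336), also called preadipocyte factor, had 0 in both. With the floor of 3 counts, a count of 0 allows up to 0.170 CPM in control and 0.223 CPM in *Myl3*-KO, and no fold is given for these genes.

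The difference in *Jag1* was closer in size to that in *Notch1* than to that in *Notch2*. The log2 ratios of *Jag1* and *Notch1* differed by 0.06 (interval -0.30 to 0.43), so differences of up to about 1.34-fold lie within the interval. That of *Jag1* exceeded that of *Notch2* by 0.76 (interval 0.56 to 0.96). The summed FPKM was 11.63 in control and 15.40 in *Myl3*-KO for the 4 receptor genes and 4.69 and 9.56 for the 6 ligand genes.

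Of the 5 members tested, 2 (*Jag1* and *Notch1*) were at least 2-fold higher in *Myl3*-KO, against 2.16% of all genes tested, and 0 were at least 2-fold lower, against 1.19%. Beyond counting error, 3 (*Jag1*, *Notch1* and *Notch2*) were higher, against 18.6% of all genes tested, and 0 were lower, against 16.8%. The median log2 ratio was 0.75 over the members tested and 0.02 over all genes tested. Reads thus differed beyond counting error for a large part of the transcriptome, and such a call by itself sets a gene little apart. By size, 220 genes (1.77% of those tested) had a log2 ratio at least as high as *Jag1*, 259 (2.08%) one as high as *Notch1* and 1795 (14.4%) one as high as *Notch2*, each count including the gene itself.

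Ratios of that size were mostly found in genes with fewer reads than *Jag1*. Among the 4451 genes tested whose summed count was within 2-fold of that of *Jag1*, a comparison added after the values were seen, 2 had a log2 ratio at least as high, namely *Jag1* itself and the assembled locus XLOC_015677 (541 and 999 counts). For *Notch1* it was 14 of 2495 genes, or 0.561%, and for *Notch2* 157 of 3364, or 4.67%. For the less counted *Notch4* it was 196 of 1186 genes, or 16.5%.

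**Figure D3:**
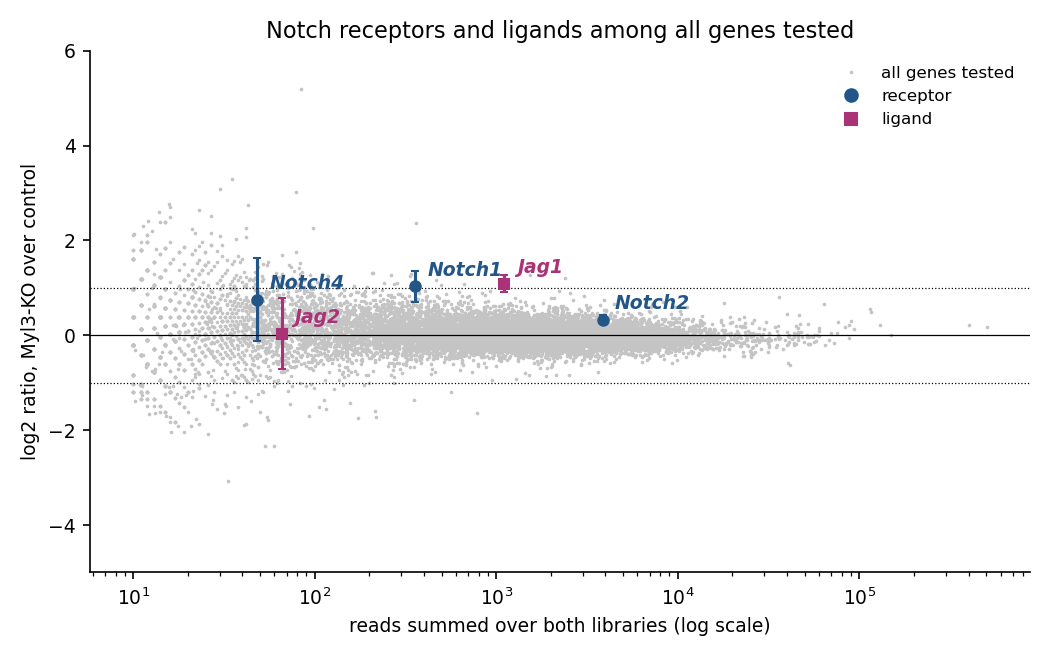
Log2 ratio of *Myl3*-KO over control for the 12431 genes tested (grey points) against the reads summed over both libraries on a log axis, with the 5 members tested drawn as circles (receptors) and squares (ligands) with 95% counting intervals. *Jag1* at 1.09 and *Notch1* at 1.03 lie just above the dotted line at 1, *Notch2* at 0.33 lies at high counts, and the intervals of *Notch4* and *Jag2* reach across 0.

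Counting error leaves out the spread between cultures, which these libraries cannot measure. If a biological coefficient of variation is assumed and the libraries are compared by edgeR's exact test, *Jag1* and *Notch1* passed at 0.1 (adjusted p = 9.14e-04 and 0.0216) and *Notch2* did not (adjusted p = 0.902). At 0.2 no member passed (adjusted p = 1 for *Jag1*, *Notch1* and *Notch2*, unadjusted exact p = 0.0102, 0.0205 and 0.420).

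The rest of the pathway was read from 7 lists of other Notch pathway genes, of which 64 were found and 53 tested. At least 2-fold higher in *Myl3*-KO were 2 of the 53 (3.77%) and at least 2-fold lower 1 (1.89%), shares to be read against 2.16% and 1.19% of all genes. Beyond counting error 20 of the 53 (37.7%) were higher and 6 (11.3%) lower, against 18.6% and 16.8% of all genes, and the median log2 ratio was 0.14 against 0.02. The counts beyond counting error given below for single lists have the same background.

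The genes past 2-fold were targets and a secreted ligand. *Hes1*, a repressor that is the classical Notch target and was singled out by the study from these same libraries, had 21 counts in control and 77 in *Myl3*-KO. *Hey1*, a related repressor, had 9 and 22 (log2 ratio 1.68, interval 0.50 to 2.98, exact binomial adjusted p = 0.0115). *Hey2* had 26 and 31 (log2 ratio 0.64, interval -0.16 to 1.45, exact binomial adjusted p = 0.215), and the targets *Hes5*, *Heyl* and *Nrarp* had 0 in both libraries. All 3 targets tested thus had positive log2 ratios, 2 of them beyond counting error, on few reads. With an assumed coefficient of variation of 0.1 the call of *Hey1* was lost (edgeR exact test, adjusted p = 0.264) and that of *Hes1* was not (adjusted p = 1.85e-05), and at 0.2 that of *Hes1* was lost as well (adjusted p = 0.0886).

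*Egfl7*, which encodes a secreted EGF repeat protein of endothelium reported to bind Notch, was the 1 gene of the lists at least 2-fold lower, in a list of other ligands of which 3 of 8 found were tested. It had 40 counts in control and 10 in *Myl3*-KO, and was lower at a log2 ratio of -1.61 (interval from -2.78 to -0.59, exact binomial adjusted p = 0.00382). That call was lost at an assumed coefficient of variation of 0.1 (edgeR exact test, adjusted p = 0.201). *Egfl7* is also a neighbour of *Notch1*, on chromosome 2 from 26580014 to 26593120. The gap between the GENCODE spans of the pair is 63.4 kb, with no counted gene lying wholly in between. The pair differed between the libraries in opposite directions. *Dlk2*, the paralogue of *Dlk1*, had 623 and 465 counts (log2 ratio -0.04, interval -0.21 to 0.14), so that the DLK gene present in these libraries was *Dlk2*.

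The genes whose products act on the receptors and ligands moved in both directions. Of the 10 genes of receptor processing, all tested, 3 were higher and 1 lower beyond counting error and 0 passed 2-fold in either direction by counts. The highest log2 ratio among them was that of the presenilin gene *Psen2* (0.49, interval -0.17 to 1.16, from 39 and 42 counts), and the lowest that of *Aph1c* (-0.29, interval -1.27 to 0.77), both γ-secretase subunits whose counts did not differ beyond counting error. The deposited FPKM of *Aph1c* went the other way, from 0.26 to 0.66, on counts estimated at 23.4 and 14.65, so that its direction is uncertain and it would be past 2-fold by FPKM. *Adam10*, the protease of the first cut, had 4312 and 3217 counts, a log2 ratio of -0.04.

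Of the enzymes that add sugars to the receptors, 4 of 5 were tested, 2 were higher and 1 lower beyond counting error, from *Rfng* (a Fringe glycosyltransferase, log2 ratio 0.29) down to *Poglut1* (an O-glucosyltransferase, -0.20). In the list of ubiquitin ligases and trafficking adaptors, 13 of 14 were tested, 5 were higher and 1 lower. The highest there was *Dtx3*, a Deltex family ligase, with 1076 and 1255 counts (log2 ratio 0.61, interval 0.49 to 0.73). The lowest was *Mib1*, the ligase that marks Notch ligands for endocytosis, with 1914 and 1276 counts (log2 ratio -0.20, interval -0.30 to -0.10, exact binomial adjusted p = 7.59e-04). In the library with more *Jag1* reads, *Mib1* was therefore slightly lower.

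In the nucleus, 9 genes of the activating complex were all tested, and 4 were higher and 0 lower beyond counting error. *Rbpj*, the DNA-binding partner of the receptor's intracellular domain, had 3640 and 3220 counts, a log2 ratio of 0.21 (interval 0.14 to 0.28). *Maml3*, a Mastermind coactivator, was the highest at 0.32 and *Snw1*, a splicing cofactor, was the lowest, at 0.997 times its control level. Of 11 corepressor genes, all tested, 4 were higher and 2 lower, from *Tle2* (a Groucho family corepressor, log2 ratio 0.58) to *Hdac2* (a histone deacetylase, -0.16). None of the genes of these last 2 lists reached 2-fold.

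**Figure D4:**
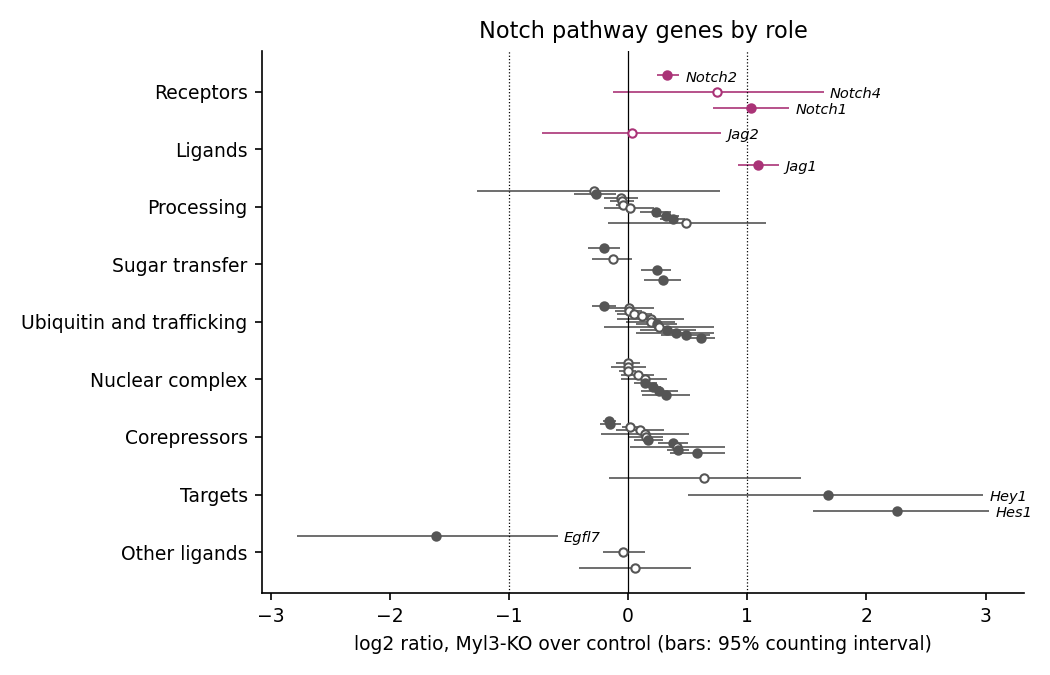
Log2 ratio of *Myl3*-KO over control for the receptor and ligand genes (purple) and the other Notch pathway genes tested (grey), by role, with 95% counting intervals as bars. Filled points passed the exact binomial test at an adjusted p of 0.05, dotted lines mark 2-fold, and beside *Jag1* and *Notch1* the genes past them are *Hes1*, *Hey1* and *Egfl7*.

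Markers of other cell types were examined because several members are typical of vessels or muscle. In bulk RNA, fewer cells of a type and less RNA per cell cannot be told apart. Of 9 endothelial markers, 3 had at least 10 counts over both libraries, and *Cdh5*, *Tie1* and *Emcn* were at 0 in both. Those 3 differed in direction, none beyond counting error. *Vwf* had 22 and 29 counts (log2 ratio 0.78), *Flt1* 29 and 16 (-0.47) and *Pecam1* 5 and 5 (0.39). The summed level of the 9 was 3.35 CPM in control and 4.60 CPM in *Myl3*-KO. *Notch4* had 21 and 27 counts, and a link to these markers was not tested. Of 9 myogenic markers, 6 were at 0 in both, among them *Pax7* and *Myod1*, and the sum of 4.26 and 21.6 CPM came almost wholly from *Cdh15*, with 73 and 290 counts. The adipogenic markers summed to 1.31 and 0.742 CPM, the immune markers to 2.05 and 2.15, and the erythroid markers to 0 and 0.0742.

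Markers of mesenchymal cells differed in both directions. The 10 mural and smooth muscle markers summed to 261 and 397 CPM, mainly through *Pdgfrb*, with 3689 and 4617 counts (log2 ratio 0.71). Of the 5 tested, *Pdgfrb* and *Cspg4* (0.48) were higher and *Mcam*, with 370 and 225 counts, lower (-0.33) beyond counting error. *Rgs5*, with 7 and 14 counts, was past 2-fold higher at 1.39, but not beyond counting error (exact binomial adjusted p = 0.108). *Acta2* was at -0.05, and *Abcc9* and *Kcnj8* were at 0 in both libraries. The 7 fibroblast markers summed to 14799 and 16903 CPM, and of the 6 tested 3 were higher and 2 lower beyond counting error. The higher ones were *Col1a1* (log2 ratio 0.15), *Col1a2* (0.22) and *Pdgfra* (0.61), while *Dcn* fell from 631 to 155 counts (log2 ratio -1.64) and *Lum* from 272 to 81 (-1.36), and *Thy1* was at 0 in both. The 15 chondrocyte markers summed to 126 CPM in each library, with *Sox9* lower (log2 ratio -0.47) and *Col11a2* higher (0.82). The part of such differences between the cultures in the values of *Jag1* and *Notch1* was not tested.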

How the data were processed

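The authors deposited expected counts, estimated reads per gene without normalization, and FPKM values, scaled by gene length and library and rounded to 2 decimals. The submitters' processing notes name GRCm38 and mm10. Aligner, counting tool, annotation and strand are not given in the sources used here. The NC columns were read as control because the other columns are headed KO.

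Counts were divided by the library total. Log2 ratios (*Myl3*-KO over control) took counts under 3 as 3. The 12431 of 22156 genes whose counts summed to 10 or more were tested, on rounded counts, with an exact binomial test (two-sided) whose null share came from the library totals, with Benjamini-Hochberg adjustment over all genes tested. With 1 library per genotype there were no residual degrees of freedom, and neither the quasi-likelihood test of edgeR nor DESeq2 was run as a test. Intervals are at 95% (Clopper-Pearson for ratios, exact conditional odds ratios between members, Poisson for levels). They cover counting error only, since each genotype has 1 library. PCR reads are not independent molecules, so the intervals may be too narrow even for that error. The test was tried before use on simulated Poisson counts with large planted changes and no spread between cultures. That trial checks the calculation only.

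The members and lists were chosen with earlier results of these data known. All members are named, and of each list of other Notch pathway genes those past 2-fold or else the highest and lowest. Genes named beyond that, such as *Hey2*, *Adam10*, *Rbpj*, *Dlk2* and single cell type markers, were chosen after their values were seen. The symbol *Ccn3* had no row and is listed as *Nov* too. With 2 libraries the pattern of a gene is 1 ratio, so no likeness between genes was computed. Coordinates are from GENCODE M21. Python 3.11.15 (numpy 2.4.6, pandas 2.3.3, scipy 1.17.1, matplotlib 3.10.9) and R 4.3.3 (edgeR 4.0.16, DESeq2 1.42.0, used for scaling factors and the exact test with a preset spread) were used.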

Additional observations from a re-analysis of the deposited data

How the results depend on the processing

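Scaling by TMM or DESeq2 size factors, a count added to each library and either filter on low counts left the log2 ratio of every member tested on the same side of 0 and of the adjusted p of 0.05, as did the FPKM ratio in sign. A preset coefficient of variation in edgeR's exact test ended calls. The log2 ratio of *Notch2*, 0.33, no longer passed at 0.1, 0.2 or 0.4, and those of *Jag1*, 1.09, and *Notch1*, 1.03, no longer passed at 0.2 or 0.4. Members beyond counting error then went from 3 higher to 0 at both (at 0.2, *Jag1* and *Notch1* had an unadjusted p under 0.05, at 0.4 none). Over all genes the calls went from 2307 higher and 2090 lower to 41 and 20 at 0.1, 3 and 1 at 0.2, and 1 and 0 at 0.4, where 25 genes had an unadjusted p under 0.05. Over the other Notch pathway genes they went from 20 and 6 to 1 and 0 at 0.1 and to 0 and 0 at 0.2 and 0.4. With at least 10 counts in each library, 108 genes were at least 2-fold higher and 31 lower, against 268 and 148, and 1 other Notch pathway gene was higher rather than 2, since fewer genes were tested and *Hey1* had 9 counts in the control. With the log2 limit raised to 2, 31 genes were higher and 6 lower, 0 members were higher, and of the other Notch pathway genes 1 was higher and 0 lower. By counts rather than per length, *Notch2* held 88.5% of the receptor reads in *Myl3*-KO, against 86.9% of the FPKM. By the FPKM ratio 3 other Notch pathway genes were at least 2-fold higher, *Aph1c* beside *Hes1* and *Hey1*, and that ratio has no test and gave no calls beyond counting error. No paired analysis was possible because each genotype has 1 library, and for the same reason no library could be left out. At this depth a difference in *Notch3* or in the Delta-like genes was not detectable.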
